A study of Ambystoma mexicanum with 2 samples.

Results

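The miR-34 and miR-449 microRNAs were examined in small RNA libraries of the axolotl tail. Members were all mirBase entries whose family label in the deposited table was miR-34 or miR-449 followed by at most 1 letter. The rule used names and no measured value. It found 8 labels, miR-34, miR-34a, miR-34b, miR-34c, miR-34e, miR-449a, miR-449b and miR-449c, out of 4563 known labels, and 65 entries out of 9277. The study had 2 libraries, 1 per condition. The control library was made from uninjured tails that had never regenerated, and the blastema library from tails at 3 days post injury, a stage at which an early blastema, the mass of proliferating cells from which the tail regrows, has formed. Each library came from pooled tissue of mature animals, so there is no replicate error, no test of the condition and no p-value, and every interval covers counting error only. The tail is a mixture of tissues, so fewer cells of a type and less RNA per cell cannot be told apart.

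In vertebrates miR-34a, miR-34b, miR-34c and the miR-449 microRNAs form a single family, since their 5′ ends carry the same core of bases, the seed, through which a microRNA pairs with its target mRNAs. In mammals miR-34a is made from a gene of its own, miR-34b and miR-34c are cut from a shared precursor, and the miR-449 microRNAs lie together in an intron of the cell cycle gene CDC20B. The mammalian miR-34 genes are induced by the tumour suppressor p53, and their products repress genes that drive the cell cycle and survival. In mice and frogs miR-34b, miR-34c and miR-449 are abundant in cells with motile cilia, and members of the family lower the centrosomal protein CP110 and the Notch ligand Delta and thereby help cilia to form.

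The sequences given here are of reads that did not map to mirBase. The authors grouped these into families named amex-miR-pn and listed, for some families, the mirBase names to which a representative read was similar in part. Of the 8 families with a listed homology to miR-34 or miR-449, 3 carried the letters GGCAGTG at bases 2 to 8 of their most common sequence, the seed of this microRNA family. These 3 sequences are shown, with the seed in capitals. They are the most common sequences of the families with both a listed homology to the members and the seed at these bases. Whether they are axolotl copies of a member was not tested.
amex-miR-pn1569: aGGCAGTGtacgttagctggtt
amex-miR-pn1570: aGGCAGTGtattgttagtttgct
amex-miR-pn1568: aGGCAGTGcatcgctagctggct
The homology of amex-miR-pn1569 was listed to miR-34b, miR-34, miR-449a, miR-34c, miR-449, miR-34a and miR-449b, while the other sequences had listings to miR-449 labels, with miR-34 named as well for amex-miR-pn1570. All 3 open with an A before the seed. They differ in the bases that follow it.

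Summed over the 65 entries, miR-34 and miR-449 numbered 1584 reads in uninjured tail and 4082 in blastema. This was 126 reads per 1000000 deposited reads (RPM) in uninjured tail (95% Wilson interval 120 to 132) and 410 RPM in blastema (398 to 423). The deposited counts, known and unmapped together, totalled 12613931 reads for uninjured tail and 9952885 for blastema. The family was therefore a minor part of both libraries. The log2 ratio of blastema over control, computed on these shares with 0.5 read added to each count, was 1.71 with a counting interval of 1.62 to 1.79. Its sign depended on the total, since it was -0.43 with edgeR's TMM factors. Ratios of this size were common, as the 518 known labels with 100 reads or more had a median log2 ratio of 2.27, and 29.2% of these labels had a lower one than the family sum. Of the member labels, 7 reached 10 reads when the libraries were added, and for all 7 the blastema share was 2-fold higher or more, beside 84.3% of the 3090 known labels with as many reads. With TMM, 2 of the 7 passed this limit beside 27% of the known labels, and 0 were lower by 2-fold or more beside 18.1%. A higher share of the family in the blastema thus did not stand apart from the bulk of the known microRNAs. The members did, however, differ from each other, and these differences are within a library and do not depend on the total.

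**Figure D1:**
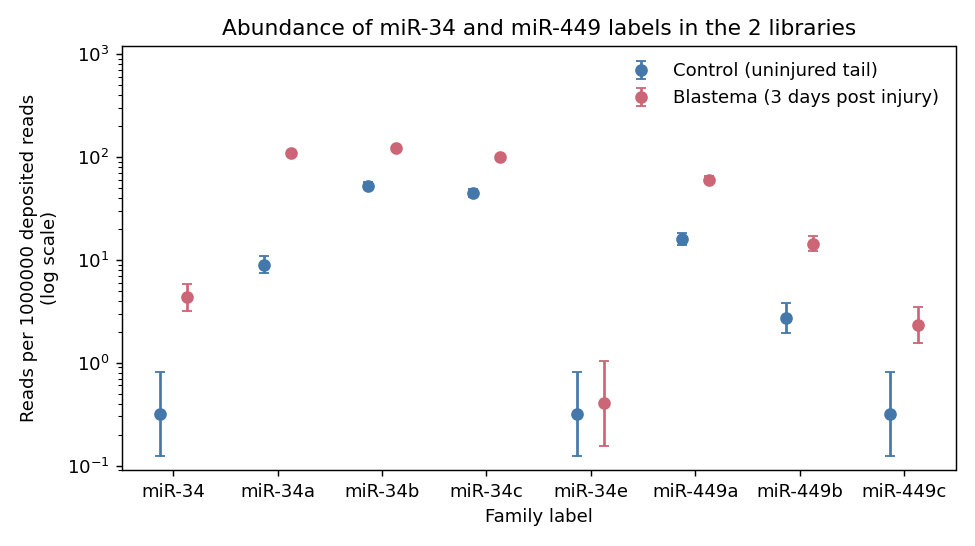
Reads per 1000000 deposited reads (RPM, vertical axis, log scale) for each of the 8 labels (horizontal axis) in the control (blue) and blastema (red) libraries, with bars for 95% Wilson intervals. In the control miR-34a, at 8.96 RPM, lay below miR-34b, miR-34c and miR-449a, while in the blastema miR-34a, miR-34b and miR-34c lay between 99.0 and 121 RPM.

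miR-34a, the form best known as a p53 target in mammals, showed the widest difference between the libraries among the labels with at least 100 reads. Its reads numbered 113 in uninjured tail and 1080 in blastema. These are 8.96 RPM in uninjured tail (7.45 to 10.8) and 109 RPM in blastema (102 to 115), a share 12.1-fold larger in the blastema. The log2 ratio was 3.59 (3.31 to 3.87). It was above the ratio of 88.2% of the 518 known labels with at least 100 reads and exceeded their median by 1.32. It kept its direction under the other scalings, from 1.45 with TMM to 3.78 with the total of known reads only.

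miR-34b, which shares its precursor with miR-34c in mammals, was the most abundant member. It had 661 control reads and 1206 blastema reads, or 52.4 RPM (48.6 to 56.6) and 121 RPM (115 to 128). The log2 ratio was 1.21 (1.07 to 1.35) on library totals, but -0.19 with the muscle labels left out of the total and -0.93 with TMM. It was lower than for most abundant labels, with 17.2% of the 518 below it.

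For miR-34c, 564 reads were counted in uninjured tail and 985 in blastema. This was 44.7 RPM (41.2 to 48.6) against 99.0 RPM (92.98 to 105). Its log2 ratio of 1.15 (0.996 to 1.29) turned to -0.25 with the muscle labels left out of the total and to -0.99 with TMM, as it did for miR-34b. The ratios of miR-34b and miR-34c were not distinguishable at this depth, since their difference was 0.06 with an interval of -0.14 to 0.27.

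miR-449a, found in ciliated airway cells of mammals, was represented by a single entry, that of the chicken. It had 200 control reads and 598 blastema reads, which is 15.9 RPM (13.8 to 18.2) and 60.1 RPM (55.5 to 65.1). Library totals gave a log2 ratio of 1.92 (1.69 to 2.15), and TMM gave -0.22. It lay above the ratio of miR-34b by 0.71 (0.44 to 0.98) and above that of miR-34c by 0.77 (0.50 to 1.05), both beyond counting error. miR-449b had 34 control reads and 143 blastema reads and a log2 ratio of 2.40 (1.86 to 2.93). Its difference from miR-449a, 0.48 (-0.11 to 1.06), was within counting error.

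The 3 remaining labels had few reads. miR-34, from the carp only, had 4 control reads and 43 blastema reads, and its log2 ratio was 3.61 (2.21 to 5.02). miR-449c had 4 and 23 reads, with a log2 ratio of 2.73 (1.27 to 4.18). miR-34e, from the lancelet only, had 4 reads in each library, and its interval of -1.54 to 2.23 included 0.

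**Figure D2:**
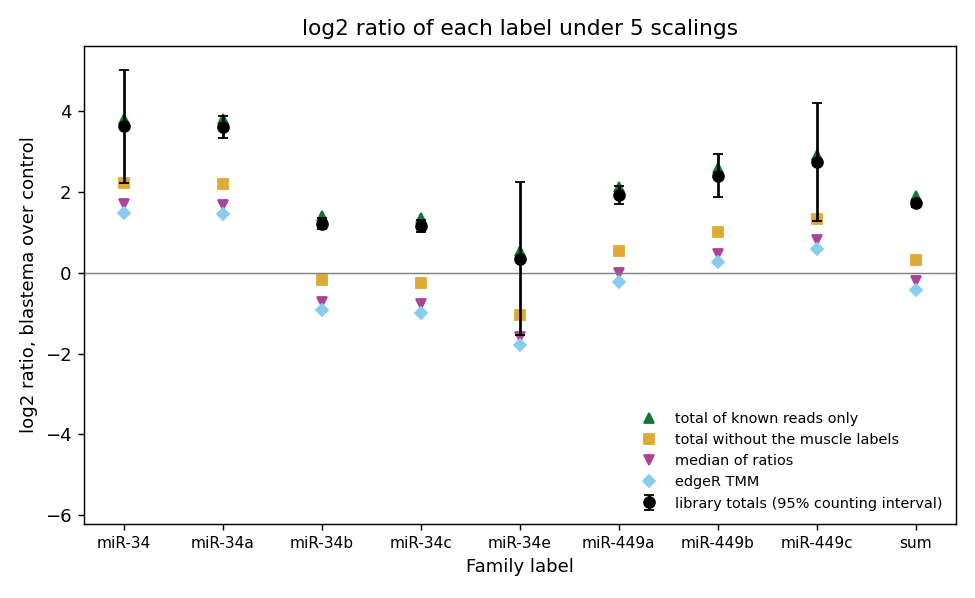
log2 ratio of blastema over control (vertical axis) for each label and for the sum of all 8 (horizontal axis). Black points with 95% counting intervals use the library totals, and coloured points show 4 other scalings, which move all labels by the same amount; miR-34a stays above 0 throughout, while miR-34b and miR-34c fall below 0 under 3 of them.

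Within the family reads, the balance of the labels shifted from miR-34b and miR-34c towards miR-34a. The labels are names of mirBase entries of other species, to which reads aligned with mismatches allowed. Whether they stand for separate axolotl microRNAs was not tested. In the control library miR-34a made up 7.13% of the family reads (95% Wilson interval 5.97 to 8.51), and in the blastema library 26.5% (25.1 to 27.8). Over the same libraries miR-34b went from 41.7% (39.3 to 44.2) to 29.5% (28.2 to 30.96). miR-34c went from 35.6% (33.3 to 37.996) to 24.1% (22.8 to 25.5). The order of the labels changed with this. In the control miR-34b was highest and miR-34c next, with percentages whose intervals do not overlap, followed by miR-449a and then miR-34a. In the blastema miR-34b was again highest, miR-34a came next with an interval just below, and the intervals of miR-34a and miR-34c overlapped. miR-449a came below them with 14.6% (13.6 to 15.8) of the family reads, against 12.6% (11.1 to 14.4) in the control.

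**Figure D3:**
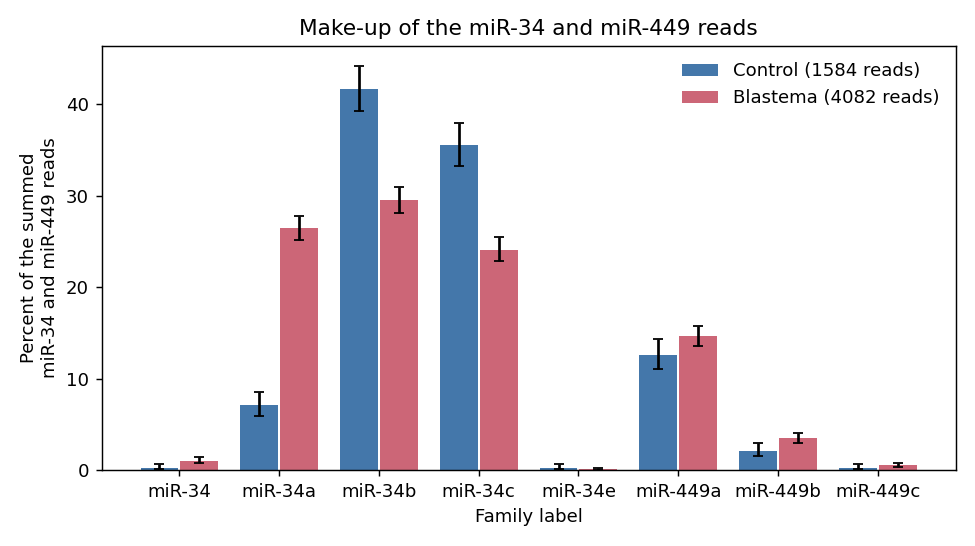
Percent of the summed miR-34 and miR-449 reads (vertical axis) taken by each label (horizontal axis) in the control (blue bars) and blastema (red bars) libraries, with 95% Wilson intervals. miR-34a takes 7.13% in the control and 26.5% in the blastema, while miR-34b and miR-34c take smaller percentages in the blastema.

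The difference in log2 ratio between miR-34a and another label measures this shift without any library total. In all, 11 pairs of labels were compared, with counting intervals and no test. miR-34a exceeded miR-34b by 2.38 (2.07 to 2.69) and miR-34c by 2.45 (2.13 to 2.76). It exceeded miR-449a by 1.67 (1.31 to 2.04) and miR-449b by 1.19 (0.59 to 1.80). These 4 intervals remained above 0 when each count was divided by 2 to allow for duplicate reads, the lowest bound being 0.34 for miR-449b. With miR-34 the difference was -0.02 (-1.45 to 1.41) and with miR-449c it was 0.87 (-0.62 to 2.35), so that no difference was detectable at this depth. With miR-34e, which had 4 reads in each library, it was 3.25 (1.35 to 5.16). That interval also remained above 0 with each count divided by 2 (0.69 to 5.81).

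How the reads were spread over the entries of a label differed between members. The 65 entries came under 31 species prefixes, of which the lancelet was the only one from outside the vertebrates, and the lowest number of reads of an entry, both libraries added, was 6. A larger share in blastema was seen for 63 entries and a smaller one for 2, the zebrafish entry dre-miR-34c-5p with 8 control reads and 0 blastema reads, and the catfish entry ipu-miR-34b with 16 and 9. This count was on library totals, where 84.3% of the 3090 known labels with at least 10 reads were 2-fold higher or more. It was not made over all known entries and does not set the members apart. miR-34a reads were spread nearly evenly over 28 species. For 27 of these entries the control reads lay between 1 and 10 and the blastema reads between 30 and 59. The exception was the platypus entry oan-miR-34a-5p, with 5 control reads and 4 blastema reads. The entry with the most miR-34a reads, efu-miR-34a of a bat, had 10 and 58. The log2 ratio was highest for the mouse entry mmu-miR-34a-5p, 5.42 (3.07 to 7.76) from 1 control read and 50 blastema reads. Among entries with at least 20 reads it was lowest for the cattle entry bta-miR-34a, 2.32 from 8 and 33. The interval of the cattle entry, 1.23 to 3.41, overlaps that of the mouse entry. The single miR-34 entry, ccr-miR-34 with 4 and 43, fell within the same range.

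In contrast, miR-34b and miR-34c reads were concentrated on few entries. Of the miR-34b reads, mdo-miR-34b-5p of an opossum had 379 in uninjured tail and 586 in blastema, and oan-miR-34b-5p of the platypus had 155 and 370. Together these held 79.8% of the label. The frog entry xtr-miR-34b had 60 and 120, and the chicken entry gga-miR-34b-5p had 42 and 94. The log2 ratio was 0.97 (0.78 to 1.16) for mdo-miR-34b-5p and 1.59 (1.32 to 1.86) for oan-miR-34b-5p, intervals that do not overlap, so entries of the same label could differ beyond counting error. Among miR-34c entries, oha-miR-34c-5p of the king cobra had 329 control reads and 578 blastema reads and tgu-miR-34c-5p of the zebra finch had 200 and 325, together 92.4% of the label. Their log2 ratios were 1.15 and 1.04. The other 14 miR-34c entries had under 20 reads each. Of the 8 miR-449b entries, eca-miR-449b of the horse had the most reads, with 14 and 63, and a log2 ratio of 2.47, and chi-miR-449b-5p of the goat, with 3 and 17, had 2.66.

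**Figure D4:**
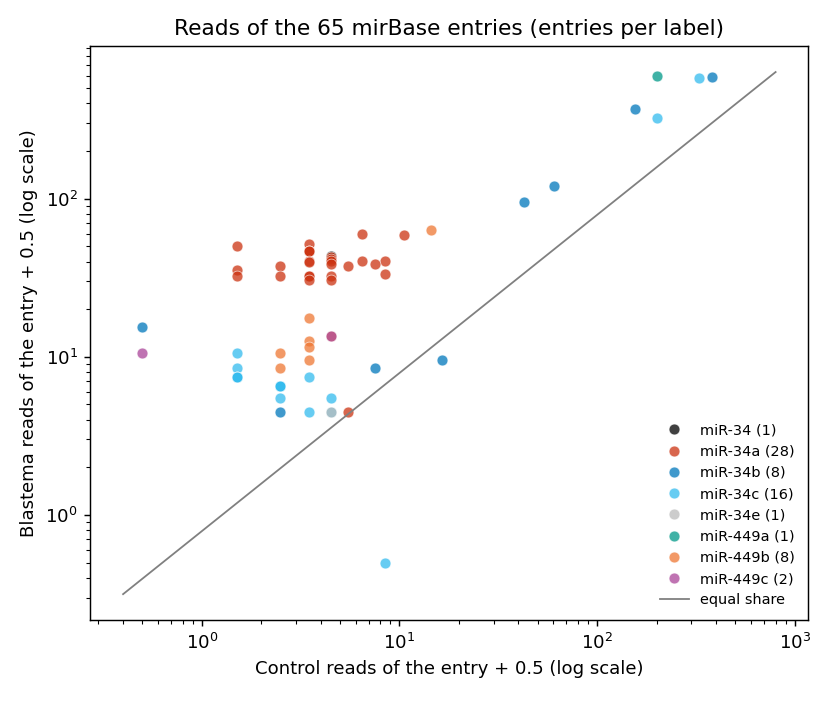
Control reads (horizontal axis) and blastema reads (vertical axis) of each of the 65 entries, each with 0.5 added and on log scales; colours mark the label and the grey line an equal share in both libraries. The miR-34a entries form a tight group at 1 to 10 control reads and 30 to 59 blastema reads apart from 1 entry on the line, while a few miR-34b, miR-34c and miR-449a entries hold most reads of their labels.

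Comparing labels within a species gave the same picture for most species. In 6 of the 7 species that list both, the log2 ratio was higher for miR-34a than for miR-34b, the exception being the platypus, with 0.05 for miR-34a and 1.59 for miR-34b. In the frog Xenopus tropicalis, the amphibian among these species, it was 4.07 for miR-34a, from 3 control reads and 46 blastema reads, and 1.34 for miR-34b. For miR-34c the log2 ratio of miR-34a was the higher in 14 of 15 species, and cattle were the exception with 8 reads of miR-34c. Only 2 of these 15 species had at least 20 miR-34c reads. For miR-34b 5 of the 7 species had as many, and miR-34a was the higher in 4 of these. The miR-34b entry of the goat and the miR-34c entry of the mouse are of the 3p arm, unlike the miR-34a entries. The species do not replicate the libraries, since all entries draw on the same reads.

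By arm of the hairpin, the names of 27 entries end in 5p, of 3 in 3p, and 35 name no arm. The 5p entries had 1173 control reads and 2421 blastema reads, which is 74.1% and 59.3% of the family. The 3p entries, chi-miR-34b-3p, mmu-miR-34c-3p and gga-miR-449c-3p, had 3 and 21. The entries that name no arm had 408 and 1640, which is 25.8% and 40.2% of the family, and the miR-34a entries among them held 77 and 720 of these. Where an arm was named, on 1176 control reads and 2442 blastema reads, 99.7% (99.3 to 99.9) in uninjured tail and 99.1% (98.7 to 99.4) in blastema were 5p. The log2 ratio was 1.39 (1.29 to 1.49) for the 5p entries, 2.35 (2.19 to 2.50) for those that name no arm and 2.96 (1.33 to 4.59) for the 3p entries. These groups hold different labels, so their ratios do not compare arms. The 5p reads were mostly of miR-34b (576 and 1065) and miR-34c (551 and 949), and the reads naming no arm include miR-449a (200 and 598). Within miR-34a the 5p entries had 36 and 360 reads, beside 77 and 720 for those that name no arm.

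The unmapped sequences shown above had ratios between those of the known labels. amex-miR-pn1569, with 11 sequences of which 9 hold the seed at bases 2 to 8, was read 104 times in uninjured tail and 286 times in blastema. The log2 ratio was 1.80 (1.47 to 2.12). amex-miR-pn1570 had 28 and 86 reads, with a log2 ratio of 1.94 (1.33 to 2.55). amex-miR-pn1568 had 4 and 12 reads and a log2 ratio of 1.82 (0.26 to 3.37). Counts of unmapped sequences are even numbers, and dividing them by 2 widened this interval to -0.29 to 3.92. For the 3 together, 136 control reads and 384 blastema reads gave 1.84 (1.55 to 2.12). Adding them to the known entries moved the log2 ratio of the family from 1.71 to 1.72. The authors grouped only unmapped sequences above a minimum of reads. The 4 control reads of amex-miR-pn1568 would not have met it alone, so no weight is put on its ratio. In amex-miR-pn1569, sequences with 0 control reads and 8, 10 or 12 blastema reads were kept likewise, and another with 10 and 0. The counting intervals do not cover this selection.

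The seed letters GGCAGTG at bases 2 to 8 occurred in 26 of the 59811 unmapped sequences, and 11 of these belong to the families above. The 5 with the most reads are shown to compare what follows the seed, again in capitals.
amex-miR-pn1567: aGGCAGTGgagggccgaactcgt
amex-miR-pn1569: aGGCAGTGtacgttagctggtt
amex-miR-pn1570: aGGCAGTGtattgttagtttgct
amex-miR-pn101: aGGCAGTGgagggccgaact
amex-miR-pn1569: aGGCAGTGtacgttagctggta
They had 80, 58, 28, 16 and 10 control reads and 290, 190, 86, 22 and 18 blastema reads in this order. The sequences of amex-miR-pn1567 and amex-miR-pn101 share the same bases after the seed, gagggccgaact, and these families have no listed homology to miR-34 or miR-449.

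The known labels with levels most like a member were found by their distance in the plane of the log2 shares of both libraries, over the known labels with at least 100 reads. Nearest to miR-34b, the most abundant member, were miR-92b with 637 control reads and 1342 blastema reads (distance 0.16), miR-101a with 625 and 1063 (0.20) and miR-9b with 588 and 1305 (0.20). Nearest to miR-34a, a choice made after its values were seen, were miR-301b with a log2 ratio of 3.53 (distance 0.04), miR-142a with 3.13 (0.33) and miR-19d with 3.42 (0.35). With 2 libraries, likeness covers abundance and ratio only.

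Other microRNAs that are tied to p53 in mammals were listed in the deposited table for 13 of 15 labels looked up. Of these 13, 11 were higher in the blastema by 2-fold or more, beside 84.3% of the 3090 known labels, and the other 2 differed by less. Their median log2 ratio was 2.30, against 2.26 for the 3090 known labels with at least 10 reads, so the list as a whole lay at the level of the rest. The highest was miR-605 at 3.997, from 2 control reads and 31 blastema reads, and next miR-15a, a repressor of cell cycle genes, at 3.09. miR-192 and miR-215, which share a seed and are induced by p53 in human cells, were the lowest with 0.17 and 0.28. With TMM, 1 of the 13 was higher by 2-fold or more beside 27% of the known labels, and 3 were lower by as much beside 18.1%.

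Markers of the tissues of the tail moved between the libraries as well. The muscle microRNAs miR-1, miR-133 and miR-206 together had 521086 RPM in uninjured tail and 110890 RPM in blastema. These 3 are fewer than the muscle labels left out of the total in the scaling above. All 6 epithelial microRNAs (miR-200a, miR-200b, miR-141, miR-429, miR-203 and miR-205) were at least 2-fold higher in the blastema, as were 84.3% of the known labels, with log2 ratios of 2.52 to 4.04 and a sum of 1633 RPM in uninjured tail and 18492 RPM in blastema. All 4 leukocyte microRNAs (miR-142, miR-223, miR-150 and miR-155) were as well, with 1.24 to 4.18 and sums of 207 and 2238 RPM. With TMM, 5 of the 6 epithelial and 2 of the 4 leukocyte microRNAs were at least 2-fold higher, beside 27% of the known labels. The 3 neural microRNAs (miR-9, miR-124 and miR-128) had log2 ratios of 0.58 to 1.71 and summed to 868 and 2103 RPM, and 2 of the 3 were at least 2-fold higher. With TMM, 0 of these were higher by as much and 2 were lower, beside 18.1% of the known labels, and their median log2 ratio was -1.001. For red blood cells miR-451 and miR-144 had 2.11 and 3.43 and summed to 15.0 and 97.2 RPM. With TMM their log2 ratios were -0.03 and 1.29. miR-486 was also looked up for these cells and was not listed. None of the listed markers was at 0 in either library. The log2 ratio of miR-34a, 3.59, lay within the range of the epithelial and leukocyte microRNAs, and those of miR-34b and miR-34c lay within the range of the neural ones. These ranges are wide, and all 3 ratios also lay within that of the p53-linked labels, 0.17 to 3.997. The part of the listed cell types in the results was not tested.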

How the data were processed

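Small RNA of 2 pools of axolotl tail tissue was sequenced on the Illumina Genome Analyzer. After trimming, the authors aligned reads against mirBase with Bowtie 1.1.2, mismatches allowed, and deposited raw counts per mirBase entry and per unmapped sequence, with counts of families of unmapped sequences in a second table. How a read matching several entries was counted is not given in the sources used here, so near-identical entries may split reads. The deposited normalized signal, log2 values and log2 fold changes of the authors were not used.

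Counts were summed per label and per arm. Shares are of the library total, 12613931 and 9952885 reads, with Wilson 95% intervals. Intervals of log2 ratios come from the Poisson error of both counts. PCR copies are not independent molecules, so intervals cover counting error only. A count of 0 in the control allows 2.38e-05% (3 reads). The alternatives were 4 other scalings, other minimums of reads, 4-fold in place of 2-fold, 5 reads added, and subsets of entries. Leaving out entries from pairs of labels, counts divided by 2, and the sum with unmapped families were chosen after seeing the data. The members and lists were chosen with earlier results of these data known. Named were every label, in each label the entry with the most reads and, among entries with at least 20 reads of labels with at least 100, those with the highest and lowest ratio where they bear on the text, the 3 labels nearest to the most abundant member, and unmapped sequences by homology or seed. Calculations were tested on simulated Poisson counts. These held no duplicate reads and no reads matching several entries, so the test covers the arithmetic only. TMM factors were from edgeR 4.0.16 in R 4.3.3, and all else from Python 3.11.15 with SciPy 1.17.1, NumPy 2.4.6, Matplotlib 3.10.9 and pandas 2.3.3. Genome positions and mirBase sequences were not used.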

Additional observations from a re-analysis of the deposited data

Results flagged for a closer look

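Among unmapped families with a listed homology to miR-34a, 3 had reads in the blastema library only. amex-miR-pn6489 had 34 blastema reads, amex-miR-pn7675 had 18 and amex-miR-pn7682 had 12, each with 0 control reads. Their 4 sequences can all be read from the tandem repeat of a single unit of 22 bases. The unit is given with the seed GGCAGTG in capitals at bases 2 to 8, and it was worked out from the overlap of the sequences, not read from mirBase.
repeat unit: tGGCAGTGtcttagctggttgt
In the sequences themselves, capitals mark the bases that lie after the junction, where the unit starts again.
amex-miR-pn6489: cagtgtcttagctggttgtTGG
amex-miR-pn6489: agtgtcttagctggttgtTGGC
amex-miR-pn7675: ggttgtTGGCAGTGTCTTAGCT
amex-miR-pn7682: gtcttagctggttgtTGGCA
They had 22, 12, 18 and 12 blastema reads in this order. Each thus runs past the last base of the unit and on from its first, with 6 to 19 bases before the junction and 3 to 16 after it. The start of the unit was set to put the seed at bases 2 to 8, and the junction and these lengths follow from that choice. No sequence is longer than the unit, so the reads do not show separate copies. Together they held 64 blastema reads, 5.93% of the number of miR-34a reads there. The same percentage of the 113 miR-34a control reads would be 6.70 reads for all 4 sequences together. These sequences are singled out for having 0 control reads. That 0 can therefore not be weighed against the 6.70 reads, and no fold is given against the control. The authors grouped only unmapped sequences above a minimum of reads, which these passed through the blastema library alone. How these sequences arose was not tested.

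The remaining families with a listed homology were amex-miR-pn3455, listed to miR-301 labels as well as miR-34, with 10 control reads and 26 blastema reads, and amex-miR-pn6971, listed to miR-449b, with 0 and 8. Neither holds the seed at bases 2 to 8.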

How the results depend on the processing

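Relative to library totals, the total of known reads only added 0.19 to every log2 ratio, the total without the muscle labels -1.39, the median of ratios -1.93 and TMM -2.14. In this order the log2 ratio of the family sum was 1.90, 0.31, -0.22 and -0.43, and it was 1.88 without the entry with the most reads. For miR-34b it was -0.19 without the muscle labels, -0.72 with the median of ratios and -0.93 with TMM, for miR-34c -0.25, -0.78 and -0.99, and for miR-449a -0.0072 with the median of ratios and -0.22 with TMM. miR-34a, miR-34, miR-449b and miR-449c kept their direction under each scaling. The number of member labels at least 2-fold higher, 7, was 4 at 4-fold, 4 without the muscle labels and 2 with TMM. For all known labels it was 2605, and 1442 without the muscle labels, 834 with TMM and 444 of 518 with at least 100 reads. Adding 5 reads or leaving out 3p entries moved no label beyond its counting interval. Without the entry with the most reads of each label, miR-34a exceeded miR-34b by 2.17 and miR-34c by 2.51, and over species that list both by 2.07 and 2.69. The difference from miR-449c, which has 2 entries, became -1.09 (-5.19 to 3.02). miR-34, miR-34e and miR-449a have 1 entry, so that alternative gives no value for them, and miR-34e has no vertebrate entry. No paired analysis was possible because each condition has 1 library. Depth limits the labels with 4 control reads, whose intervals span over 2 log2 units.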
